A study of Mus musculus with 18 samples.

Results

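The response to TGF-β was examined in mouse embryonic fibroblasts (MEF) transfected with the Col1a1-miR-29b plasmid, in 6 of the 18 RNA libraries of the series. Members were chosen by the labels alone. The 3 libraries labelled with this plasmid and TGF-β were compared with the 3 labelled with the plasmid and no treatment, over all 21161 of 55450 genes with enough counts to test. Both groups were MEF from a commercial cell collection that had taken up, by transient transfection, a pcDNA3 plasmid in which a rat Col1a1 promoter drives EGFP and a human miR-29b-1 sequence. The treated group received 20 ng/ml TGF-β from 6 h after transfection for 24 h, and the untreated group was grown for the same time without it. MEF with the empty pcDNA3 vector and MEF with the CMV-miR-29b plasmid, whose viral promoter is always active, were handled in the same way in 3 libraries a group and are used here for comparison. The share of cells that had taken up a plasmid is not in the labels, so each library is an average over transfected and untransfected cells.

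TGF-β is a secreted factor that binds a pair of receptor kinases, which phosphorylate Smad2 and Smad3. These enter the nucleus with Smad4 and switch on genes of the extracellular matrix, of the contractile apparatus and of their own inhibition, and this response turns fibroblasts into matrix-depositing myofibroblasts. The miR-29 family of microRNAs binds the 3' UTR of many collagen mRNAs through its seed, a run of bases near the 5' end, and lowers their levels. A plasmid with a Col1a1 promoter puts miR-29b under a promoter of a collagen gene that TGF-β itself activates.

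The 3 mature miR-29 microRNAs of the mouse are shown because they share the seed that the collagen sites below pair with (RefSeq, GRCm38.p6, bases 2 to 8 in capitals).
mmu-miR-29a-3p: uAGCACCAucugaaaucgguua
mmu-miR-29b-3p: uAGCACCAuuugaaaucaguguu
mmu-miR-29c-3p: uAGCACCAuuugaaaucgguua
The plasmid carries miR-29b, whose mouse gene Mir29b-1 encodes the mature form at chr6:31063025-31063047 on the minus strand.

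Among the 10 fibrillar collagen genes tested, 6 had in their 3' UTR the 8-base site made of the seed match and an A, which is in capitals below (GENCODE M21 transcripts, GRCm38). The first such site of each is printed because these 6 genes all rose with TGF-β in cells that carried the miR-29b plasmid.
Col1a1, chr11:94952522-94952547, plus strand: ggtgggaaggaatttcTGGTGCTAta
Col2a1, chr15:97975679-97975704, minus strand: tgcgtgtcctacacaaTGGTGCTAtt
Col3a1, chr1:45348966-45348991, plus strand: cttcaaaatgtctcaaTGGTGCTAta
Col5a1, chr2:28038018-28038043, plus strand: ttacacttgtctcttgTGGTGCTAtg
Col5a2, chr1:45374963-45374988, minus strand: acttttcttttaatgaTGGTGCTAaa
Col5a3, chr9:20770501-20770526, minus strand: cctccaccaggcctttTGGTGCTAtt

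The 6 libraries held 70297024 to 74376198 counts each, within the range of 65898017 to 80332633 over all 18. Between 349 and 396 of 9433 well counted genes differed in a library by more than 0.5 on the log2 scale from the other 2 libraries of its group, and the 6 libraries described here held 349 to 367 such genes. Of 12 fibroblast markers tested, 5 rose and 1 fell, and 7 had positive log2 fold changes (median 0.13). The summed normalized count of all 14 listed was 169699 to 186367 without TGF-β and 293476 to 304141 with it. That sum includes Col1a1, Col1a2 and Col3a1, with means of 62597, 36348 and 10111 without and 128253, 81042 and 16299 with TGF-β. The marker Lum was at or below 3 counts in all 18 libraries. The 7 leukocyte markers tested gave no call. Of the 12 listed, Cd3e and Tyrobp were at or below 3 counts in all 18 libraries. The summed count of the 12 was 1889 to 2006 without and 1807 to 2120 with TGF-β. The 5 endothelial markers tested gave no call, yet all 5 had positive log2 fold changes (median 0.50). The summed count of the 8 listed was 130.5 to 158.5 without and 210.8 to 251.3 with TGF-β, without overlap. Of 5 epithelial markers tested 4 had positive values (median 0.39) and none of these was called. The summed count of the 10 listed was 4827 to 4858 without and 2946 to 2962 with TGF-β. Most of that sum is Krt19, at 4725, 4745 and 4709 without and 2773, 2746 and 2794 with TGF-β. Of 2 fat cell markers 1 fell and the other had a positive value, of 6 nervous system markers 1 rose and of 6 skeletal muscle markers none was called. The summed count of the 9 listed fat cell markers was 115.9 to 159.5 without and 66.7 to 89.3 with TGF-β. For the 9 of the nervous system it was 3432 to 3818 without and 4992 to 5307 with it. For the 9 of skeletal muscle it was 1221 to 1553 without and 1056 to 1329 with it. Krt19 fell by 0.77 (SE 0.08) on the log2 scale, Fabp4 of fat cells fell by 1.79 (SE 0.42, a call lost without any of 3 libraries, adjusted p up to 0.105) and the neuronal tubulin gene Tubb3 rose by 0.66 (SE 0.09). Their part in the results below was not tested, and in bulk RNA fewer cells of a type and less RNA per cell cannot be told apart.

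Mir29b-1 itself was near the floor of detection in these libraries. It had 0, 1 and 1 counts in untreated and 4, 2 and 6 in treated libraries. All 3 treated libraries were higher than the 3 untreated ones, but every value was small. The log2 fold change was 2.41 (SE 0.91) with an adjusted p of 0.228 by edgeR, and an exact permutation test (two-sided) gave 0.1, which is the smallest p that 3 libraries against 3 allow. Cells with the empty vector had 0 counts in all 6 libraries and those with CMV-miR-29b had normalized counts of 104, 112 and 300 in untreated and 217, 232 and 300 in treated libraries. These libraries were made from poly(A) RNA, so the counts do not measure the mature microRNA.

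TGF-β changed 914 genes in Col1a1-miR-29b cells, which is 4.32% of the genes tested (edgeR quasi-likelihood test, Benjamini-Hochberg adjusted p under 0.05). The 634 that rose are 3.0% of all genes and the 280 that fell are 1.32%. Changes of at least 2-fold were fewer, with 154 higher (0.728%) and 47 lower (0.222%). The median log2 fold change was 0.51 among the genes that rose, −0.43 among those that fell and −0.01 over all genes. In 911 of the 914 genes the 3 treated libraries lay wholly above or below the 3 untreated ones, while 11.8% of all genes had every treated library higher and 10.2% had every one lower.

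**Figure D1:**
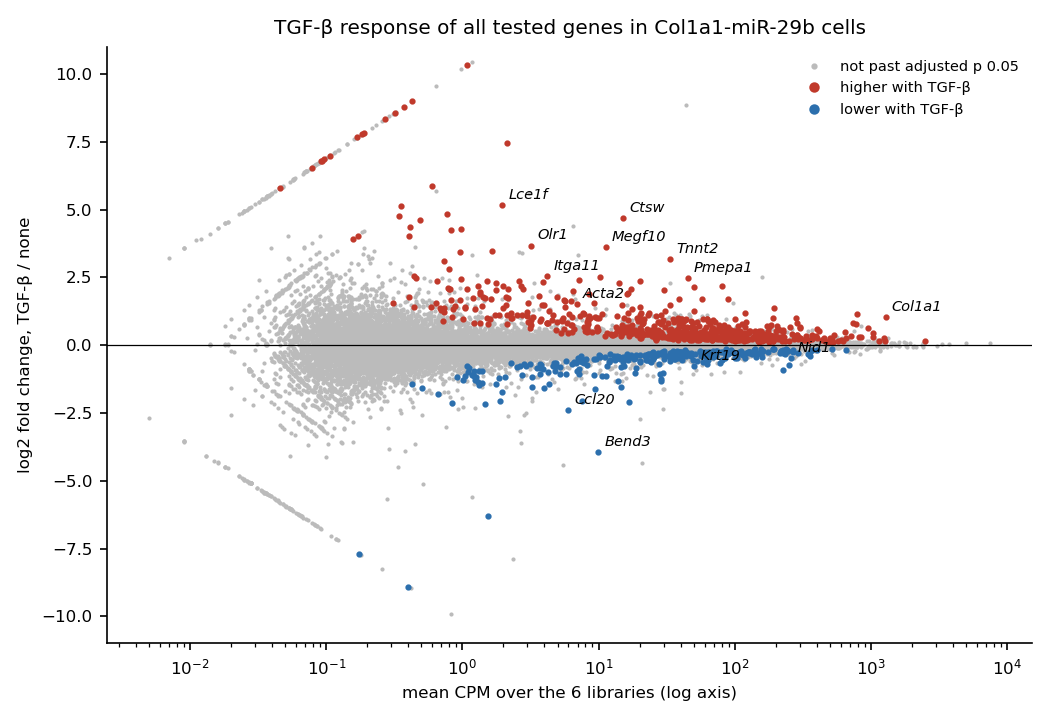
Each point is 1 of the 21161 tested genes, with its mean CPM over the 6 Col1a1-miR-29b libraries on a log axis and its log2 fold change with TGF-β on the y axis. The 634 genes in red were higher and the 280 in blue lower at an adjusted p under 0.05, and the rises of Ctsw, Megf10 and Tnnt2 lie above a log2 fold change of 3.

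The ligands, latent binding proteins and activators of the pathway were among the genes that rose. Of 18 members tested, 6 rose and 1 fell, with a median log2 fold change of 0.14 beside −0.01 over all genes. Ltbp2, a latent TGF-β binding protein family member of the matrix, had normalized counts (counts scaled to the mean library size) of 340, 425 and 316 in untreated and 1795, 1726 and 1731 in treated libraries. The groups were far apart, and the log2 fold change was 2.28 (SE 0.11). Thbs1, the thrombospondin that activates latent TGF-β, stood at 9501, 9654 and 9022 without and at 17989, 19365 and 19588 with TGF-β, a log2 fold change of 1.01 (SE 0.08). Ltbp1 rose by 0.77 (SE 0.10), Ltbp3 by 0.70 (SE 0.07) and Furin, the protease that cleaves the TGF-β precursor, by 0.65 (SE 0.08). Tgfb1, the gene of the ligand, was at 2364, 2367 and 2464 without and at 3080, 3330 and 3055 with TGF-β. Its rise of 0.40 (SE 0.08) had an adjusted p of 0.00886. The 1 member that fell was Itgb8, an integrin subunit that frees TGF-β from its latent form, with a log2 fold change of −0.83 (SE 0.14). Its edgeR adjusted p was 0.00188 over all 18 libraries and 0.0606, not called, with the 6 Col1a1-miR-29b libraries fitted alone. The receptor genes gave no call, with log2 fold changes of 0.08 (SE 0.06) for Tgfbr1 and −0.14 (SE 0.05) for Tgfbr2.

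The Smads carry the signal, and a set of feedback inhibitors limits it. Of 16 genes tested in this group 4 rose and none fell, and the transducers Smad2, Smad3 and Smad4 were not among them. Pmepa1, on chromosome 2 at 173224458 to 173276533, encodes a membrane protein that withholds Smads from the receptor. It had normalized counts of 1021, 1098 and 977 in untreated and 5790, 5890 and 5442 in treated libraries. Each group was tight and the groups were far apart, and the log2 fold change was 2.47 (SE 0.07, adjusted p 1.97e-11). Ldlrad4, a relative of Pmepa1, went from 226, 222 and 245 to 717, 752 and 658, a log2 fold change of 1.62 (SE 0.12). Tgif1, a co-repressor, rose by 0.57 (SE 0.10) and Smurf1, a ubiquitin ligase that acts on the receptor and on Smads, by 0.33 (SE 0.07).

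Smad7, the inhibitory Smad, showed tight groups in these cells. It was at 1531, 1682 and 1622 without and at 3176, 3436 and 3360 with TGF-β. The groups did not overlap, yet the adjusted p was 0.0631 for a log2 fold change of 1.04 with an SE of 0.30. That error came from all 18 libraries, which include 1095 beside 2996 and 2878 in TGF-β treated empty vector cells. With the 6 Col1a1-miR-29b libraries fitted alone the SE was 0.06 and the adjusted p was 0.000476. Over all genes, that fit kept 615 of the 914 calls. Skil, a Smad co-repressor, had 5613, 5282 and 2134 without and 9617, 8289 and 7493 with TGF-β, and its log2 fold change of 0.96 (SE 0.34) was not called.

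Classical target genes of TGF-β rose in number. Of 25 tested, 13 rose, 8 of them at least 2-fold, and none fell, with a median log2 fold change of 0.37. Ccn2, a matricellular growth factor, went from 2861, 3436 and 3093 to 9518, 10297 and 10976. Every treated library was above every untreated one, and the log2 fold change was 1.71 (SE 0.10, adjusted p 1.92e-08). Ccn4, of the same family, went from 2239, 2314 and 1971 to 9480, 10391 and 9692, a log2 fold change of 2.18 (SE 0.07). Has2, the synthase of hyaluronan, rose by 2.42 (SE 0.18) and Pdgfb, a growth factor subunit, by 2.03 (SE 0.09). Inhba, which encodes the activin A subunit, had 1001, 1217 and 1053 without and 2153, 2491 and 2437 with TGF-β, a log2 fold change of 1.11 (SE 0.13).

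**Figure D2:**
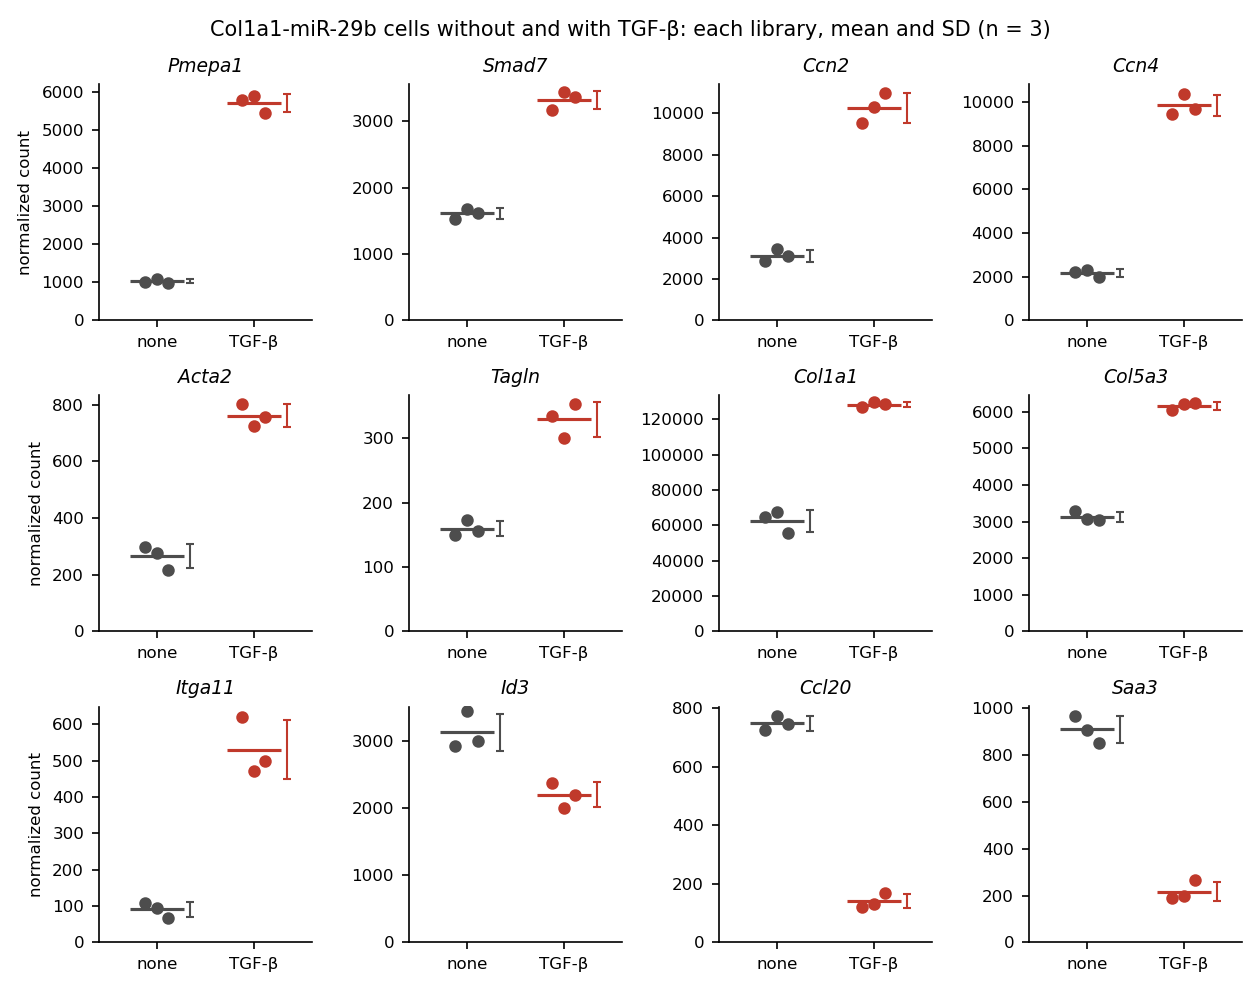
Normalized counts of 12 genes in each of the 3 untreated (grey) and 3 TGF-β treated (red) libraries of Col1a1-miR-29b cells, each axis starting at 0, with the group mean as a line and the SD as the bar beside it. The 2 groups do not overlap in any of the 12 genes, with 9 higher and 3 (Id3, Ccl20 and Saa3) lower after TGF-β.

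BMP signaling is the sister branch of the pathway, and its Id genes are early targets that encode inhibitors of differentiation factors. Of 19 members of this branch tested, 6 rose and 1 fell. The fall was that of Id3, from 2931, 3440 and 3006 to 2379, 2008 and 2198, a log2 fold change of −0.51 (SE 0.08). All treated libraries were below all untreated ones. Id1 was not called, with −0.24 (SE 0.14), nor was Id2, whose libraries without a letter (1999 without and 1623 with TGF-β) were well below the others. Bmpr1b, a BMP receptor gene, had no count in any untreated library and 63, 36 and 86 counts in the treated ones, a rise of at least 20.97-fold over the floor of 3 counts per library (adjusted p 0.00083). Bmpr2 rose by 0.47 (SE 0.06) and Fstl3, which encodes a secreted antagonist of activins, by 0.98 (SE 0.06). Bmp4 had 363, 433 and 383 normalized counts without and 1068, 911 and 1087 with TGF-β. It was not called over all 18 libraries (adjusted p 0.118) and was called when the 6 libraries were fitted alone (adjusted p 0.00165).

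Contractile genes define the myofibroblast. Of 24 tested, 7 rose and 2 fell, with a median log2 fold change of 0.27. Acta2, which encodes smooth muscle α-actin and lies on chromosome 19 at 34241090 to 34255590, went from 299, 278 and 217 to 803, 724 and 757. All treated libraries were far above all untreated ones, and the log2 fold change was 1.52 (SE 0.14, adjusted p 5.67e-06). Fhl2, a LIM protein of focal adhesions and the nucleus, went from 1096, 1119 and 986 to 2453, 2342 and 2418, a log2 fold change of 1.17 (SE 0.11). Tpm1, a tropomyosin, rose by 0.59 (SE 0.09), Smtn, the gene of smoothelin, by 0.53 (SE 0.04) and Actn1, which encodes an actin cross-linker, by 0.28 (SE 0.05).

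Tagln, which encodes transgelin, had 150, 172 and 155 normalized counts without and 334, 300 and 353 with TGF-β. Its log2 fold change of 1.05 (SE 0.26) had an adjusted p of 0.0311, and the call was lost whichever of the 6 libraries was left out, with an adjusted p of up to 0.123. Postn, which encodes the matricellular protein periostin, went from 4, 4 and 28 to 169, 127 and 97, a log2 fold change of 3.44 (SE 0.73) that lost its call without untreated replicate c or d (adjusted p up to 0.0631). The 2 contractile genes that fell were Mylk, the myosin light chain kinase, by 0.50 (SE 0.10) and Tpm2 by 0.16 (SE 0.04). The call of Mylk was lost without replicate d of either group (adjusted p up to 0.0657) and that of Tpm2 without any of 5 libraries (adjusted p up to 0.0938). Cnn1, which encodes calponin and is another marker of smooth muscle, was not called (−0.20, SE 0.17).

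Serum response factor switches on contractile genes through the CArG box. In promoter windows from 250 bases before to 50 bases after a RefSeq start site, 23.1% of 26 windows of 20 contractile genes held a CArG box on either strand, against 1.40% of 15688 windows of all tested genes. Fhl2 is the 1 gene of these 20 that rose at least 2-fold and held the exact form of the CArG box in such a window. It has 2 start sites, each with 1 box, and the window with its box closest to the start is printed with the box in capitals (GRCm38.p6, chr1:43163912-43164211, minus strand).
Fhl2: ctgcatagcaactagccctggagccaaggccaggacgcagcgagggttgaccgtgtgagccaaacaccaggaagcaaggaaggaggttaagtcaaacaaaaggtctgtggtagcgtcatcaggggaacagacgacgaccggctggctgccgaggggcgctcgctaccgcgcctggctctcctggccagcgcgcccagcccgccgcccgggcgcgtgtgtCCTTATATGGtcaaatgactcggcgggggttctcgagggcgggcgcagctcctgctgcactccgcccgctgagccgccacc
The box begins at −31 relative to the start site. Across the genes that rose at least 2-fold, 110 windows of 87 genes were in the table, and 11.8% of them held the AP-1 motif TGACTCA against 4.42% of all windows, while 28.2% held the Smad motif CAGACA against 16.9%. Among the genes that fell at least 2-fold the same shares over 44 windows were 2.27% and 18.2%. Both strands were searched, each motif was counted on its own, and a gene with several start sites has several windows. The CArG box searched is CC, 6 bases of A or T, and GG. Boxes that depart from this form, or lie outside the windows, were not counted, so a gene without a hit may still have one.

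Fibrillar collagens, which form the tensile fibres of connective tissue, rose together. Of 10 tested, 8 were higher after TGF-β and none lower, and the median log2 fold change was 0.89 beside −0.01 over all genes. Col1a1, on chromosome 11 at 94936224 to 94953042, had normalized counts of 64806, 67420 and 55565 in untreated and 126676, 129425 and 128657 in treated libraries. The groups were far apart, with the untreated library without a letter the lowest, and the log2 fold change was 1.03 (SE 0.08, adjusted p 7.71e-07). Its partner in type I collagen, Col1a2, went from 38235, 37881 and 32926 to 79008, 83555 and 80562, a log2 fold change of 1.16 (SE 0.10). Col3a1, of type III collagen, rose by 0.69 (SE 0.11). The 3 chains of type V collagen, which sets fibre diameter, rose by 0.81 (SE 0.06) for Col5a1, 0.65 (SE 0.05) for Col5a2 and 0.98 (SE 0.06) for Col5a3. Col11a1 of type XI collagen had the largest rise, from 440, 581 and 511 to 1804, 1912 and 2140, a log2 fold change of 1.93 (SE 0.16). Col2a1, the cartilage collagen, rose by 1.17 (SE 0.27), a call that was lost without any of 5 of the 6 libraries (adjusted p up to 0.0883).

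Levels can be compared between genes in FPKM, which is scaled for length and was used here only for replicates c and d. Without TGF-β the FPKM of Col1a1 was 121 and 126, that of Col5a2 was 70.8 and 73.6, and that of Col1a2 was 37.6 and 37.4. With TGF-β these became 233 and 235, 109 and 110, and 76.8 and 80.3, so the order of the 3 genes did not change. Col11a1 remained low at 1.71 and 1.79, although its fold change was the largest of the group.

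Collagens with the 8-base miR-29 site responded alongside those without it. Of 14 fibrillar and other collagens with the site, 9 rose and 1 fell, with a median log2 fold change of 0.75. Of 19 without it 6 rose and none fell, with a median of 0.50. Among these 19, Col11a1, Col16a1, Col4a2 and Col4a4 (2 each) and Col4a3 (4) held the seed match without the A, so the 19 do not all lack a seed match. The 1 with the site that fell was Col4a5, of basement membrane collagen, which has 3 such sites. It had a log2 fold change of −0.71 (SE 0.05). The median difference from the response of empty vector cells was −0.18 over the 14 with the site, 11 of which responded less, and −0.01 over the 19 without it, 10 of which responded less. Among fibrillar collagens alone the median difference was −0.179 over the 6 with the site (5 smaller) and −0.238 over the 4 without it (4 smaller). Col27a1, 1 of those 4, had few counts (17, 4 and 27 in untreated Col1a1-miR-29b libraries) and a difference of −2.26 (SE 1.22). Among the other collagens it was −0.203 over the 8 with the site (6 smaller) and 0.091 over the 15 without it (6 smaller). No test of these differences was made. Over all genes with a 3' UTR, 484 tested genes had the site, and 34 rose and 10 fell with TGF-β, which is 9.09% called. Of 13958 genes without the site 5.80% were called. The median 3' UTR was 2722 bases long with the site and 1214 without, and the median CPM was 34.7 and 27.1. Their median differences from the empty vector response were −0.025 and −0.004.

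Other collagens were more mixed, with 7 of 23 higher and 1 lower. Col12a1, which coats fibrils, rose by 0.86 (SE 0.06) and Col7a1, of anchoring fibrils, by 0.95 (SE 0.12). Col6a3, of the microfibrillar type VI collagen, went from 12, 4 and 12 to 44, 55 and 71, a log2 fold change of 2.56 (SE 0.57) that lost its call without untreated replicate d or the treated library without a letter (adjusted p up to 0.0718). Of 31 genes of collagen processing, 11 rose and 1 fell. Creb3l1, a transcription factor of collagen secretion, went from 2003, 2285 and 2243 to 5112, 5567 and 5084, a log2 fold change of 1.27 (SE 0.08). P4ha3, a prolyl hydroxylase subunit, rose by 0.73 (SE 0.09). The fall was that of Pcolce, an enhancer of procollagen cleavage, by 0.32 (SE 0.07), and it lost its call without any of 4 libraries (adjusted p up to 0.0674).

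Among 43 genes of elastic fibres and matrix glycoproteins, 13 rose and 4 fell. Cthrc1, a secreted protein of activated fibroblasts, went from 578, 502 and 478 to 1785, 2055 and 1873, a log2 fold change of 1.87 (SE 0.09). Small proteoglycans moved in both directions, and Bgn, the gene of biglycan, rose by 0.79 (SE 0.05). Dcn, which encodes decorin, a proteoglycan that binds TGF-β, went from 389, 402 and 325 to 162, 174 and 201, a log2 fold change of −1.05 (SE 0.22). Ogn, of the same family, fell by 1.18 (SE 0.19), and Nid1, of the basement membrane, went from 23752, 22389 and 21666 to 15415, 16707 and 16192. Of 20 integrin subunit genes 5 rose and 2 fell. Itga11, the α chain of a collagen receptor, showed the largest rise, from 110, 96 and 68 to 622, 471 and 500, a log2 fold change of 2.54 (SE 0.21), and Itgb5 rose by 0.74 (SE 0.06). Of 34 matrix proteases and inhibitors 10 rose and 4 fell. Timp3, an inhibitor of metalloproteinases, rose by 1.20 (SE 0.06) and Adamtsl3 by 1.89 (SE 0.17), while Adamts5, an aggrecanase, went from 2743, 2931 and 2885 to 1333, 1266 and 1505, a log2 fold change of −1.06 (SE 0.09).

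Growth factors formed another responsive group, with 15 of 35 higher and 3 lower. Vegfc, a growth factor of lymphatic vessels, went from 106, 54 and 78 to 304, 353 and 345, a log2 fold change of 2.08 (SE 0.31). Pdgfc rose by 1.77 (SE 0.27) and Igfbp7, which encodes an insulin-like growth factor binding protein, by 1.38 (SE 0.06). Genes of endoplasmic reticulum folding and secretion, which serve the export of matrix proteins, had 9 of 28 members higher and none lower, with a median log2 fold change of 0.11. Of 26 p53 target genes 6 rose, among them Cdkn1a, the inhibitor of cyclin-dependent kinases, by 0.34 (SE 0.05). Cdkn1a was also the only 1 of 44 cell cycle genes to be called.

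Chemokine and acute-phase genes fell. Of 25 tested, 10 fell, 7 of them at least 2-fold, and 2 rose, with a median log2 fold change of −0.49. Ccl20, a chemokine for lymphocytes and dendritic cells, went from 725, 774 and 747 to 122, 132 and 170. The groups were far apart, and the log2 fold change was −2.41 (SE 0.22, adjusted p 4.41e-06). Saa3, which encodes an acute-phase apolipoprotein, went from 968, 910 and 852 to 191, 197 and 265, a log2 fold change of −2.07 (SE 0.20). Steap4, a metalloreductase, fell by 2.05 (SE 0.23) and Ptx3, a soluble pattern recognition molecule, by 1.63 (SE 0.16). The 2 that rose were Ccl17 by 1.18 (SE 0.19) and Cxcl16 by 0.76 (SE 0.17), the latter a call lost without any of 3 libraries (adjusted p up to 0.0849).

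Interferon-induced genes and genes of lipid synthesis had smaller falls. Of 53 interferon-induced genes 8 fell and none rose, with a median log2 fold change of −0.20. Gbp2, a guanylate-binding protein, fell by 0.53 (SE 0.06) and Oas2, a sensor enzyme of double-stranded RNA, by 0.54 (SE 0.10). Of 34 genes of cholesterol and fatty acid synthesis, 7 fell and none rose, with a median of −0.22. Elovl6, a fatty acid elongase, fell by 0.38 (SE 0.07) and Fdps, an enzyme of isoprenoid synthesis, by 0.32 (SE 0.05). Xdh, which encodes xanthine dehydrogenase, fell by 1.01 (SE 0.10) as 1 of 3 falls among 39 antioxidant genes, of which 2 rose. No call was made among 75 cytosolic ribosomal protein genes or 25 entries for serine, glycine and proline synthesis.

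**Figure D3:**
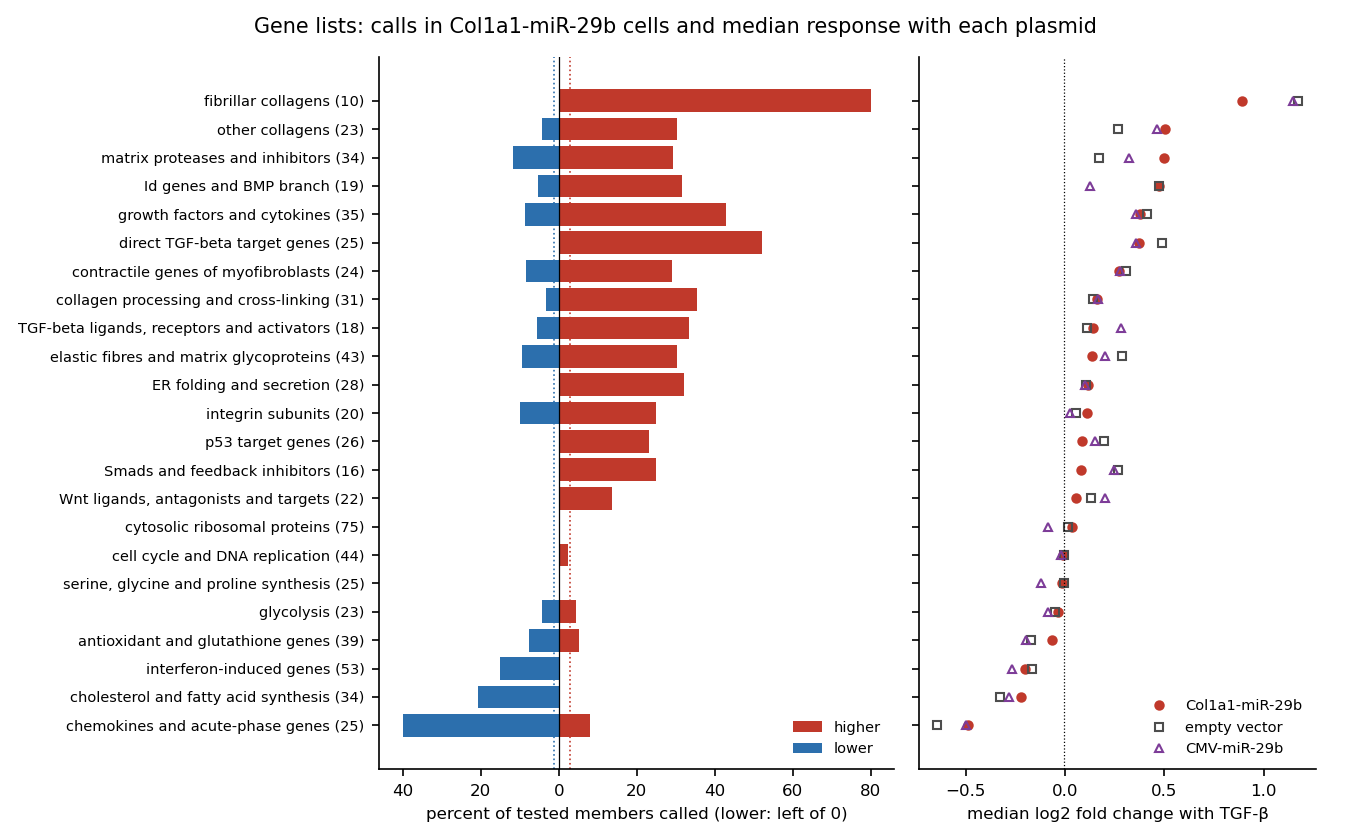
Left, percent of tested members of each gene list (number tested in parentheses) that were higher (red, right of 0) or lower (blue, left of 0) after TGF-β treatment of Col1a1-miR-29b cells, with dotted lines at 3.0% and 1.32%, the shares over all genes. Right, the median log2 fold change of each list with the 3 plasmids, where fibrillar collagens stand at 0.89 in Col1a1-miR-29b cells, 1.17 with the empty vector and 1.15 with CMV-miR-29b.

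Among 17 pathways of the deposited KEGG annotation the share called ran from 3.12% to 31.8%, beside 4.32% of all genes. Of 66 tested genes of ECM-receptor interaction 17 rose and 4 fell, and of 174 of focal adhesion 34 rose and 6 fell. The annotated TGF-beta signaling pathway had 9 of 77 genes higher and 2 lower. In the other direction, 5 of 37 genes of xenobiotic metabolism by cytochrome P450, 5 of 21 of terpenoid backbone synthesis and 6 of 33 of pyruvate metabolism fell, and none of these rose. Wnt signaling (4.96% called), antigen processing and presentation (3.12%, with 2 higher and none lower), glutathione metabolism (6.25%) and steroid biosynthesis (6.25%) were near the share of all genes. Cell adhesion molecules had 4 of 101 genes higher and 6 lower, and p53 signaling had 7 of 68 higher and none lower. Of the others, 38 of 285 genes of PI3K-Akt signaling rose and 7 fell, 23 of 177 of the actin cytoskeleton rose and 8 fell, 17 of 168 of cytokine receptor interaction rose and 5 fell, 15 of 53 of protein digestion rose and 1 fell, and 12 of 65 of gap junctions rose and none fell.

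Outside these lists lay the largest rises, taken over genes that reached a mean CPM of 1 and leaving out predicted genes. Lce1f, which encodes a late cornified envelope protein, went from 4, 7 and 12 to 252, 312 and 286, a log2 fold change of 5.17 (SE 0.55). Ctsw, a cathepsin gene, had 55, 75 and 120 normalized counts without and 1780, 2438 and 2261 with TGF-β, a log2 fold change of 4.69 (SE 0.34). All treated libraries of both genes were far above all untreated ones. Olr1, a receptor for oxidized low-density lipoprotein, rose by 3.67 (SE 0.33), Megf10, an engulfment receptor, by 3.61 (SE 0.17) and Tnnt2, which encodes cardiac troponin T, by 3.18 (SE 0.13). Acsbg1, an acyl-CoA synthetase gene, rose by 2.38 (SE 0.12) and Lrp2bp by 2.33 (SE 0.27). Among the largest falls beside those of acute-phase genes were Dchs2, a cadherin gene, by 1.75 (SE 0.28) and Enpp2, which encodes autotaxin, by 1.59 (SE 0.20).

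The same treatment of cells with other plasmids gave mostly the same genes. Empty vector cells had 1245 calls (5.88%, with 3.88% higher and 2.01% lower). CMV-miR-29b cells had 1047 (4.95%, with 3.08% higher and 1.87% lower). Each was compared with its own untreated libraries, so the fold changes share no library with those of Col1a1-miR-29b cells. The error of each gene, and so each call, came from all 18 libraries. Of the 634 genes that rose in Col1a1-miR-29b cells, 487 (76.8%) also rose with the empty vector, which is 59.4% of the 820 that did so there, and 455 (71.8%) rose with CMV-miR-29b, 69.8% of the 652. Of the 280 that fell, 184 (65.7%) fell with the empty vector and 173 (61.8%) with CMV-miR-29b, or 43.3% and 43.8% of the falls there. No gene was called in opposite directions.

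Whether the response itself differed between plasmids was tested as a difference of 2 responses. Against the empty vector no gene passed the adjusted threshold by edgeR (0.00%), and 961 (4.54%) had an unadjusted p under 0.05. Against CMV-miR-29b none passed (0.00%) and 1083 (5.12%) had an unadjusted p under 0.05. DESeq2 called 27 and 34 genes. Pmepa1, Slc25a28, Inhba, Pak4, Bend3 and Pdgfa were among the 27, and Plpp6, Prkar2b, Bub3 and Larp1 were among the 34. The adjusted p-values that follow are those of edgeR. Among the genes of the lists above, Pmepa1 had the smallest edgeR p against the empty vector. Its normalized counts in empty vector cells were 809, 757 and 835 without and 7069, 6167 and 7066 with TGF-β, a rise of 3.08 on the log2 scale against 2.47 with the Col1a1-miR-29b plasmid. The difference was −0.61 (SE 0.10, adjusted p 0.175), and with CMV-miR-29b the rise was 2.72. Inhba had log2 fold changes of 1.11, 2.05 with the empty vector and 1.64 with CMV-miR-29b. Its treated libraries were at 2153 to 2491 in Col1a1-miR-29b cells and at 3347 to 5003 in empty vector cells, without overlap, and the difference of −0.93 (SE 0.18) had an adjusted p of 0.412. Megf10 rose by 3.61 against 4.51 with the empty vector (adjusted p 0.726), and Pdgfa, a growth factor gene, by 0.21 (SE 0.07, not called) against 0.68 (adjusted p 0.655).

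To look at the size of the response in genes whose fold change came from other libraries, the 652 genes called higher in CMV-miR-29b cells were used. The error behind each call still came from all 18 libraries, so the choice is not fully independent of the libraries compared. Their median log2 fold change was 0.45 in Col1a1-miR-29b cells and 0.49 in empty vector cells, and 66.3% of them rose less in Col1a1-miR-29b cells, where over all genes 51.4% had the lower value. For the 395 called lower in CMV-miR-29b cells the medians were −0.25 and −0.31, and 65.6% fell less. With the 820 genes called higher in empty vector cells the medians were 0.36 for the Col1a1 promoter plasmid and 0.36 for the CMV plasmid, and 54.4% rose less in the former, beside 50% over all genes. For the 425 called lower in empty vector cells the medians were −0.26 and −0.30, and 60.5% fell less with the Col1a1 promoter plasmid. These genes are not independent of each other, and the shares are given without a test.

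By list, the fibrillar collagens had a smaller log2 fold change in Col1a1-miR-29b than in empty vector cells in 9 of 10 genes, with medians of 0.89 and 1.17. Col5a3 had the smallest p of the group, with a difference of −0.29 (SE 0.08, unadjusted p 0.00322), and Col1a1 had −0.22 (SE 0.11, unadjusted p 0.0671). The Smads and feedback inhibitors had the smaller value in 15 of 16 genes. Of 34 cholesterol and fatty acid synthesis genes 1 had the lower log2 fold change in Col1a1-miR-29b cells, with medians of −0.22 and −0.33, and 7 of them were called lower against 19 with the empty vector. None of these genes passed the adjusted threshold for a difference by edgeR, so the lists are described by their counts only. DESeq2 called the difference of Pmepa1, of the feedback inhibitors.

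**Figure D4:**
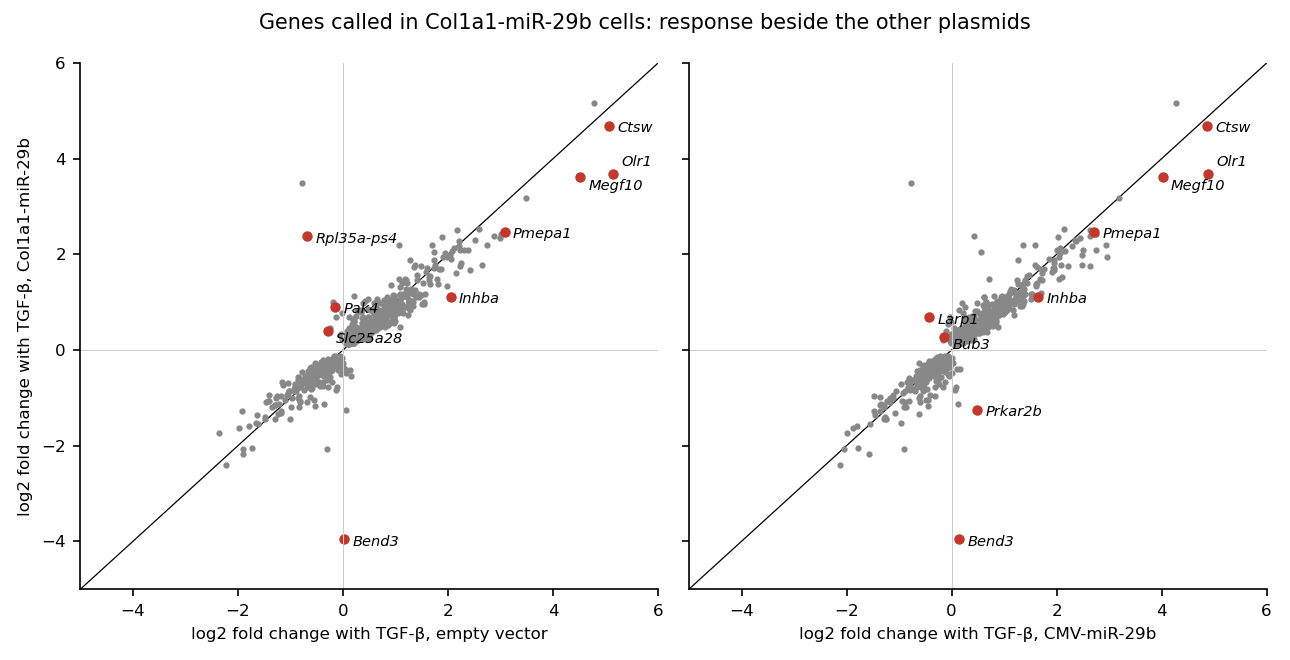
Each point is 1 of the 858 genes called in Col1a1-miR-29b cells with a mean CPM of at least 1, with its log2 fold change there on the y axis and that with the empty vector (left) or CMV-miR-29b (right) on the x axis. The line marks equal responses, and most points lie near it, while Pmepa1 (2.47 against 3.08) and Inhba (1.11 against 2.05) lie below it on the left and Bend3 (−3.96 against 0.02) lies far from it.

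Some calls rested on genes whose counts stood at separate levels in libraries of 1 group. Bend3, a chromatin-associated repressor gene, was at 1423, 1389 and 1358 without and at 98, 84 and 86 with TGF-β, a log2 fold change of −3.96 (SE 0.66, adjusted p 0.00182). It was at 1417 to 1651 in all 6 empty vector libraries. In CMV-miR-29b cells 1 untreated library was at 110 beside 1634 and 1463, and 1 treated library at 553 beside 1503 and 1476, so the low level also occurred in an untreated library of another group. Prkar2b, a regulatory subunit of protein kinase A, was at 3158, 2790 and 3143 without and at 1218, 1279 and 1312 with TGF-β. Its levels in other groups ran from 1286 to 3519, and the 3 untreated CMV-miR-29b libraries were at 1681, 1532 and 1407. Larp1, which encodes an RNA-binding protein, rose from 14912, 14510 and 13962 to 22348, 24362 and 22920, a call lost without any of 3 libraries (adjusted p up to 0.0714). In other groups it ran from 16004 to 27385. Pak4, a kinase gene, rose from 2524, 2365 and 2570 to 4566, 4530 and 4797, while 1 treated empty vector library was at 2550 beside 4494 and 4247. Ski, a Smad co-repressor, showed the split within the treated group itself, with 3537, 9105 and 3456 beside 6958, 6740 and 7287 without TGF-β, and was not called.

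Genes with a mean normalized count of at least 100 were counted by whether libraries of the same group lay at least 2-fold apart. In some group of the other plasmids this was so for 35 of 838 called genes (4.18%), a lower share than 1461 of all 13322. It was so for 34 of the 133 called at least 2-fold (25.6%), a higher share. Within the Col1a1-miR-29b groups the shares were 1.79% of called genes, 9.77% of those called at least 2-fold and 7.02% of all. The error of each gene came from all 18 libraries, so a gene with such levels needed a larger change to be called. The test itself therefore partly sets all of these shares, and nothing is concluded from how they differ. How the counts were taken from the assembled transcripts is not given in the sources used here, and its part in these levels was not tested.

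**Figure D5:**
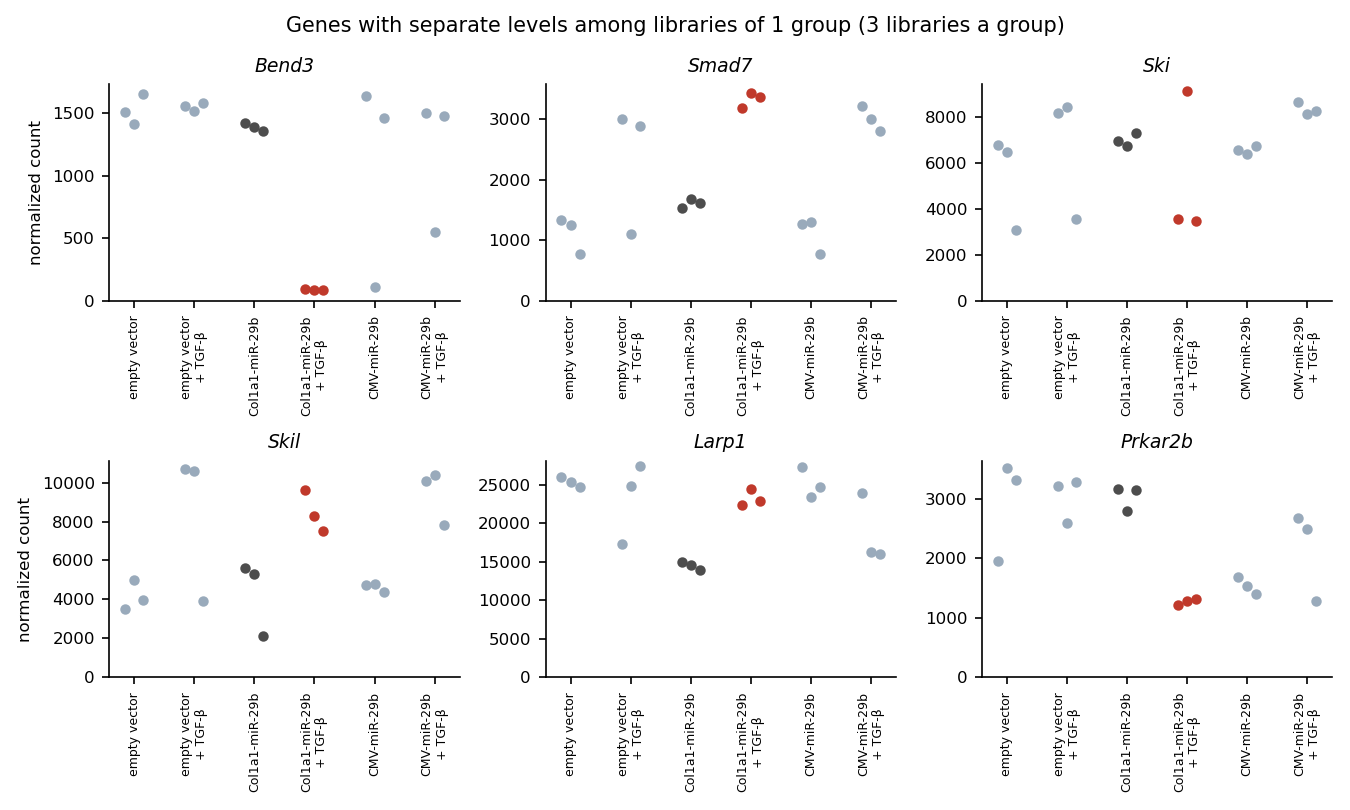
Normalized counts of 6 genes in all 18 libraries, 3 a group, with untreated Col1a1-miR-29b libraries in dark grey, treated ones in red and the other plasmids in light grey, each axis starting at 0. Bend3 stands at 84 to 98 in the 3 treated Col1a1-miR-29b libraries and at 110 in 1 untreated CMV-miR-29b library, and Smad7 at 1095 in 1 treated empty vector library beside 2996 and 2878.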

How the data were processed

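Poly(A) RNA from 18 MEF libraries, 3 in each of 6 groups, was sequenced. The authors trimmed reads with cutadapt, aligned them with HISAT2 and assembled transcripts with StringTie against Ensembl release 96, and they deposited whole-number read counts and FPKM values per gene. How the counts were taken, and on which strand, is not given in the sources used here. The labels name build mm9, but 52543 of 55450 genes have the coordinates of GENCODE M21 (GRCm38), so GRCm38 was used. Between 33.8% and 36.72% of counts from 1 to 40 were multiples of 4, where 25% would be an even share, and the effect of this was tried by dividing counts by 4. Library totals were 65898017 to 80332633, with a median of 74155860.

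Counts were tested with edgeR 4.0.16 (R 4.3.3): filterByExpr, TMM scaling and a quasi-likelihood fit of 6 group means over the 18 libraries. P-values were adjusted by Benjamini-Hochberg across 21161 genes, with a threshold of 0.05. A normalized count is a count scaled to the mean effective library size. DESeq2 1.42.0, limma 3.58.1 on log2(FPKM + 1) and log2(FPKM + 0.1), other filters and scalings, the groups alone and each library left out were alternatives. Single values were tested by exact permutation. Scripts were tested on simulated data. The labels give replicate letters c, d and e. The third Col1a1-miR-29b column of each treatment is headed with the letter f, which is in no title. It is called the library without a letter because no title letter could be given to it. Its group is known from its name, and 2 columns (its FPKM) were not used. The replicate block fit left out both of these libraries, and their deviations had an r of 0.021. Libraries with the same letter did not deviate together (mean r 0.006 over 36 pairs against −0.003 over 70 with different letters, 13912 genes), so letters were not taken as pairs. The authors report 3 repeated experiments per group. Neither they nor the labels say that replicates were separate cultures, so p-values measure only the spread between these libraries. Files also hold the authors' comparisons (fold changes and p-values), which were not used.

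Named genes were the 12 largest rises and 12 largest falls with a mean CPM of at least 1 and no overlap, up to 4 per list, the 5 smallest p-values per difference and direction, and members of the pathway, contractile and fibrillar collagen lists. Bgn, Ccl17, Cxcl16, Nid1, Pcolce, Mir8114, Laptm4b and Glo1 were chosen after their values were seen. The members were picked by their labels alone, but they and the gene lists were chosen with earlier results of these data known.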

Additional observations from a re-analysis of the deposited data

Results flagged for a closer look

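In 6 of the genes chosen by the naming rule, the treated libraries lay wholly on one side of the untreated ones in Col1a1-miR-29b cells and wholly on the other side in cells with another plasmid. Over all 21161 genes this was so in 62 (0.293%) against the empty vector and in 99 (0.468%) against CMV-miR-29b. No difference passed the adjusted threshold by edgeR. The naming rule took in genes with the smallest p-values for a difference in response, Apol7a, Bub3 and Gm14049 among them. Opposite movement was therefore favoured by the choice, and the number of such named genes is not to be read against these shares. Slc25a28, a mitochondrial iron carrier gene, went from 2017, 1735 and 1855 to 2444, 2416 and 2558 normalized counts, and with the empty vector from 2452, 2600 and 2601 to 2051, 1922 and 2273. The difference in log2 fold change was 0.7 (SE 0.128, edgeR adjusted p 0.411), and its rise in Col1a1-miR-29b cells lost its call without any of 3 libraries (adjusted p up to 0.0807). Bub3, a spindle checkpoint gene, went from 7570, 7838 and 7524 to 9800, 8603 and 9311, and with CMV-miR-29b from 8436, 8406 and 9067 to 7793, 7962 and 7758. The difference was 0.41 (SE 0.0714, edgeR adjusted p 0.248). Plpp6, a lipid phosphatase gene, went from 1668, 1572 and 1691 to 1528, 1193 and 1395, and with CMV-miR-29b from 1273, 1428 and 1575 to 2249, 2283 and 2406. The difference was −0.96 (SE 0.133, edgeR adjusted p 0.0619). Rmc1 went from 3198, 3237 and 3267 to 3758, 3872 and 3558, and with CMV-miR-29b from 3645, 3547 and 3691 to 3130, 3264 and 3373. The difference was 0.36 (SE 0.0747, edgeR adjusted p 0.482), and the rise of Rmc1 in Col1a1-miR-29b cells lost its call without any of 5 libraries (adjusted p up to 0.163). Apol7a went from 567, 656 and 456 to 336, 400 and 341, and with the empty vector from 342, 345 and 360 to 464, 597 and 495, a difference of −1.21 (SE 0.267, edgeR adjusted p 0.655). The predicted gene Gm14049 went from 248, 182 and 140 to 105, 120 and 119, and with CMV-miR-29b from 167, 145 and 124 to 194, 225 and 235, a difference of −1.31 (SE 0.297, edgeR adjusted p 0.593). No formal test for a single library far from the others was made in groups of 3.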

How the results depend on the processing

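Leaving aside the test against a 2-fold change, none of the 914 calls changed sign under the alternatives that tested it. Between 361 (replicate block) and 908 (DESeq2 size factors) remained called. With the Col1a1-miR-29b groups fitted alone 615 (67.3%) remained called. Among named genes, 3 gained a call in that fit and 7 lost it. The count of 914 became 453 without both libraries without a letter (chosen after seeing the data), 465 with limma on log2(FPKM + 0.1), 499 on log2(FPKM + 1) and 394 with the replicate block. The 634 rises became 320, 305, 312 and 280 in these settings. The 280 falls became 133, 160 and 114 without the libraries without a letter, with log2(FPKM + 0.1) and with the replicate block, and 454 with DESeq2. These FPKM and block fits used fewer libraries. The 154 rises of at least 2-fold became 102 and 37 on the FPKM scales, 95 with the replicate block and 35 in a test against a 2-fold change, and the 47 falls became 12 on log2(FPKM + 1) and 7 in that test. With each library left out in turn the counts ran from 630 to 679 in all, 425 to 494 higher, 175 to 207 lower (186 without untreated replicate d), 122 to 131 and 41 to 52 at least 2-fold higher and lower, and the log2 fold change of Mir29b-1 from 1.90 to 2.76. With total count scaling 60.1% of calls were higher, against 69.4%.

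For the difference from the empty vector, 0 calls became 27 with DESeq2, 3 without the libraries without a letter, 1 with the groups alone, 3 on each FPKM scale and 2 with the replicate block. For the difference from CMV-miR-29b these were 34, 2, 1, 2 on log2(FPKM + 0.1), 3 on log2(FPKM + 1) and 2. Leaving out single libraries gave 0 to 3 calls for either. The 3 calls without the untreated library without a letter were Mir8114 (1, 1 and 556 normalized counts in untreated Col1a1-miR-29b cells), Laptm4b (3060, 3529 and 6469) and Glo1 (8301, 8327 and 10780), in each of which that library is the high one.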
